A study of Mus musculus with 52 samples.

Results

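The genes described here are 9 markers by which fibroblast subtypes are commonly told apart: Pi16, Mfap5, Dcn, Lum, Pdgfra, Pdgfrb, Fap, Acta2 and Thy1. They were taken by symbol, each matched to 1 Ensembl gene, so they are 9 of 47729 genes listed, and all 9 were among the 17899 genes with enough counts to be tested. Their RNA was measured by bulk RNA sequencing in 52 tumours grown from 4T1, an established mouse mammary carcinoma line. Every mouse was of the Balb/C strain and carried 100000 of these cells, injected at the left mammary gland that is the 4th in order. Young mice were 8 to 10 weeks old by their sample labels (8 to 12 in the growth protocol) and old mice were over 12 months old. All groups, controls included, were given 3 intraperitoneal doses of 200 µg of an antibody on days 7, 10 and 13: isotype control (clone LTF-2), anti-PD-L1 (clone 10F.9G2) or anti-CTLA4 (clone 9D9). The groups held 7 young isotype, 10 young anti-PD-L1, 12 young anti-CTLA4, 7 old isotype, 8 old anti-PD-L1 and 8 old anti-CTLA4 libraries. The tumour model rests on a single cell line, and tumours measured at most about 150 mm3.

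Fibroblasts build the connective tissue matrix and take on several states inside a tumour. Pi16 and Mfap5 mark fibroblasts of the adventitia and other resting connective tissue, Dcn and Lum encode matrix proteoglycans made by most fibroblasts, and Acta2 and Fap rise in activated, contractile or matrix-remodelling fibroblasts. The PDGF receptors Pdgfra and Pdgfrb receive growth signals in fibroblasts and, for Pdgfrb, in pericytes, while Thy1 is shared by fibroblasts and T cells. Acta2 is also made by vascular smooth muscle and myoepithelium. In bulk RNA, fewer cells of a type and less RNA per cell cannot be told apart, and neither can RNA of carcinoma cells and of host cells.

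Library totals ran from 9549847 to 53778370 counts, and the lowest count of a member in any library was 45, for Fap. The labels number 3 sequencing batches. All 7 young isotype libraries were in batch 2, where no old library was, and the 8 old anti-PD-L1 libraries were all in batch 1, where no young anti-PD-L1 library was. Young and old mice therefore shared a batch under anti-CTLA4 alone (4 young and 7 old in batch 1, 5 young and 1 old in batch 3), and in the isotype and anti-PD-L1 arms the age difference rests on batch differences estimated from other groups. The labels name biological replicates but no animals, and the p-values therefore speak only of how these libraries vary, which may in part be technical. As a check of the tissue, Epcam, an epithelial adhesion gene of the carcinoma, had a median of 166 CPM (CPM is the count of a gene scaled to library size, here with TMM factors) and was present in every library. Of 5 mesothelial markers, Upk3b was at 0 in 43 libraries, Upk1b in 29 and Lrrn4 in 10, while Msln (median 32.4 CPM) and Wt1 (median 0.831 CPM) were at 0 in none.

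The 9 genes are protein coding in GENCODE vM21 on build GRCm38. Pi16 lies at chr17:29317680-29330593 on the plus strand, Mfap5 at chr6:122505845-122529290 on the plus strand, and Thy1 at chr9:44043384-44048579 on the plus strand. Dcn (chr10:97479609-97518143) and Lum (chr10:97565128-97572703) are neighbours on the plus strand with 46984 bases between them. Pdgfra lies at chr5:75152292-75198215 on the plus strand. Fap (chr2:62500943-62574075) and Acta2 (chr19:34241090-34255590) are on the minus strand. RefSeq windows from 250 bases before to 50 after an annotated start (GRCm38.p6) were at hand for 3 of the 9 members, Pi16, Pdgfra and Acta2. Those of Pi16, the member with the largest fold change below, and of Acta2, which holds letters of the kind bound by serum response factor in smooth muscle genes, are given 5′ to 3′ on the gene's strand. Pi16 is at chr17:29318632-29318931 (plus) and Acta2 at chr19:34255324-34255623 (minus), and capitals mark matches to a motif.
Pi16: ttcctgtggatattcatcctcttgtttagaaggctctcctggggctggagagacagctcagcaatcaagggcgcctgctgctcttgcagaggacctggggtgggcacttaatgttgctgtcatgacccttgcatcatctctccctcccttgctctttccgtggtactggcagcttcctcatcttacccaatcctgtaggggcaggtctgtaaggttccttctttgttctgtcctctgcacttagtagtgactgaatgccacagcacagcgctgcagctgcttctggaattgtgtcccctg
Acta2: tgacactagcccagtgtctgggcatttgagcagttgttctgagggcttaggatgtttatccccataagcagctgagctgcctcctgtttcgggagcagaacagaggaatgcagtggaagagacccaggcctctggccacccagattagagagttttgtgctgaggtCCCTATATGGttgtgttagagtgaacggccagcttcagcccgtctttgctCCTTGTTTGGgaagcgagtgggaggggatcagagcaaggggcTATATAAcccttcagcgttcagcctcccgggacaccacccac

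Both strands were searched for the CArG box with 1 base allowed to depart from it, for TATAAA and for TATATAA. The Acta2 window held 2 CArG matches, CCCTATATGG from position -84 to -75 and CCTTGTTTGG from -34 to -25, and TATATAA from 8 to 14, counted from the annotated RefSeq start. The start of the Acta2 gene in GENCODE lies upstream of that RefSeq start. The Pi16 window, from 29318632 to 29318931, lies wholly inside the GENCODE gene, which starts upstream of it at 29317680. The window of that GENCODE start was not searched. Of 32851 RefSeq windows of the same length, 9.98% held a CArG match, 0.822% held at least 2, 13.6% held TATAAA and 3.24% held TATATAA. None of the 3 motifs was found in the windows of Pi16 and Pdgfra. A match describes letters and shows no binding.

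Levels were compared between genes in TPM, a unit scaled both to gene length and to library size. Over the 52 libraries the median was highest for Thy1 at 71.5 TPM, followed by Mfap5 at 68.0 and Dcn at 67.1. Acta2 had a median of 47.6 TPM, Lum 29.7, Pi16 14.3 and Pdgfra 10.1, and the lowest medians were those of Fap at 3.95 and Pdgfrb at 3.73. Neighbours in this order were not all separated: Thy1 exceeded Mfap5 in 33 of 52 libraries, Mfap5 exceeded Dcn in 23, and Fap exceeded Pdgfrb in 29. Pi16 exceeded Pdgfra in 45 of 52 libraries and Pdgfra exceeded Fap in 47. Between libraries, Dcn varied 14.1-fold in CPM and Lum 13.3-fold, whereas Mfap5 varied 3.21-fold and Thy1 3.43-fold.

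**Figure D1:**
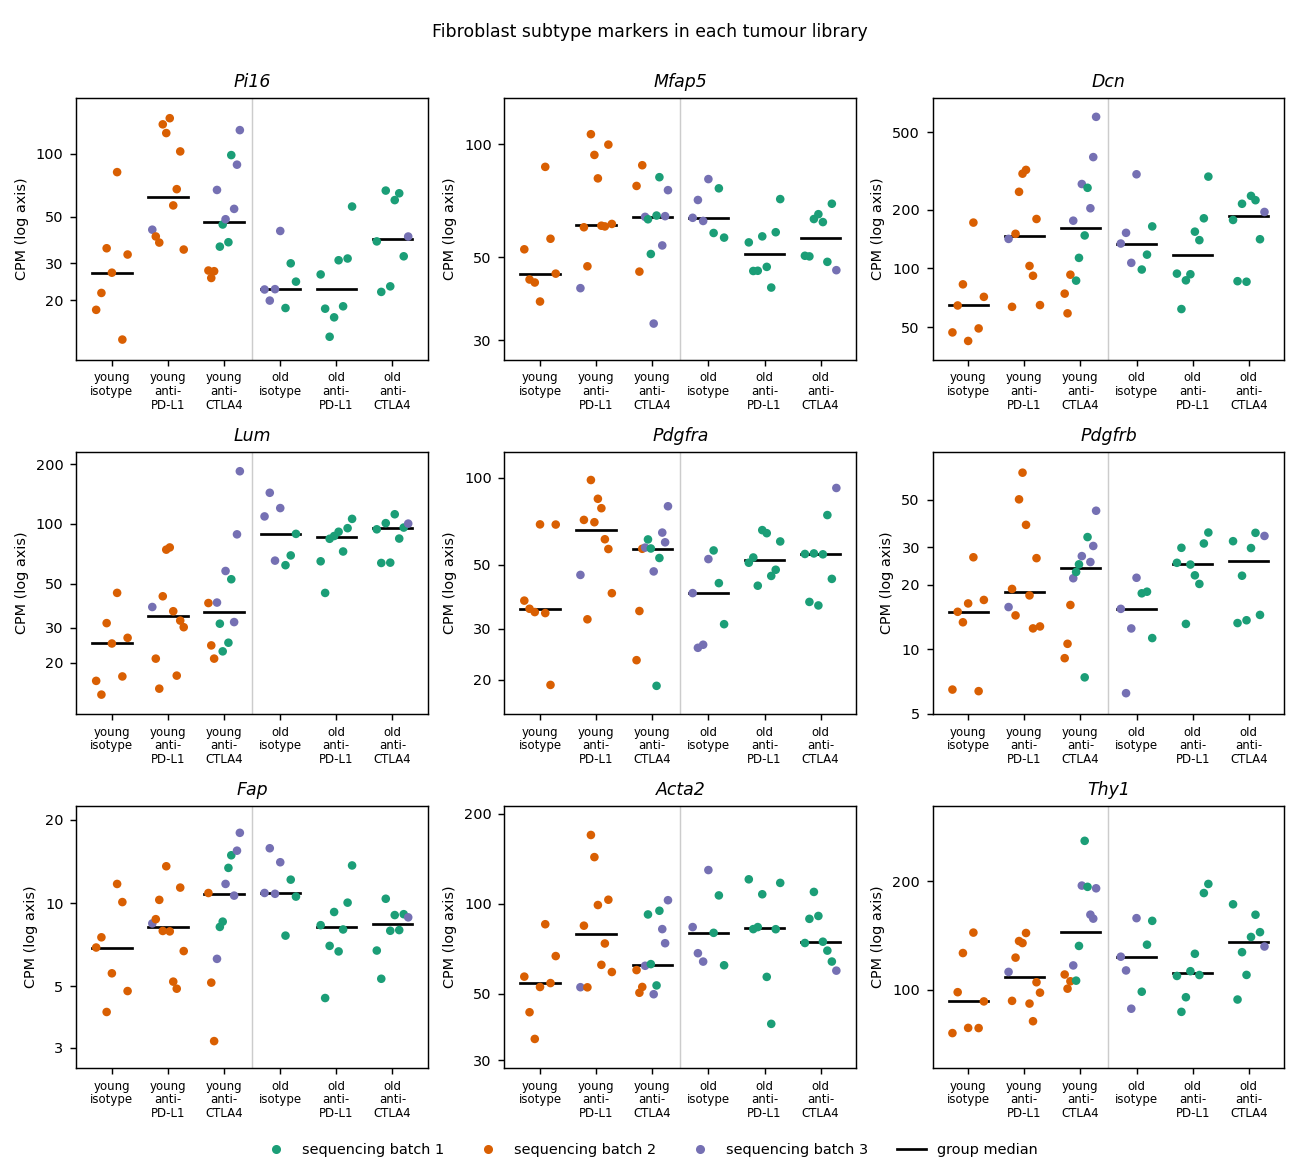
TMM-normalized CPM (log axis) of each member in each of the 52 libraries, by group, coloured by sequencing batch, with black bars at the group medians. Lum lay at medians of 85.5 to 94.9 CPM in the 3 old groups and 25.03 to 36.03 CPM in the 3 young groups, and Pi16 had its highest median, 62.2 CPM, in young anti-PD-L1 tumours.

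Of 99 tests (9 members in 11 comparisons), 2 passed at an adjusted p under 0.05 in edgeR's quasi-likelihood test: Lum was higher in old than in young tumours under anti-CTLA4, and Pi16 was lower in old than in young tumours under anti-PD-L1. Lum encodes lumican, a keratan sulfate proteoglycan that spaces collagen fibrils. Under anti-CTLA4, Lum ran from 63.6 through a median of 94.9 to 112 CPM in 8 old tumours and from 21.01 through 36.03 to 184 CPM in 12 young tumours. All 8 old tumours were above the young median, and the groups overlapped through the highest young libraries, the highest of which, replicate 12, was also the highest of all 52 in Dcn (599 CPM). The difference was 2.17-fold (log2 1.12 ± 0.34 SE, edgeR adjusted p 0.00946), in a comparison where 30.6% of all genes tested passed (14.8% higher and 15.9% lower) and 41.5% had an unadjusted p under 0.05. A count of 1 of 9 members, with 1 of 9 also at an unadjusted p under 0.05, is below that background. Within batch 1 the groups did not overlap, with 63.6 to 112 CPM in 7 old and 22.9 to 52.7 CPM in 4 young tumours. The share of all genes that did not overlap there was not computed. The log2 difference in that batch alone was 1.42 ± 0.24 (edgeR adjusted p 0.000308). In batch 3 the 1 old tumour, at 100 CPM, lay inside the range of the 5 young tumours, 32.1 to 184 CPM. Mean Lum of the young anti-CTLA4 tumours was 33.1, 28.5 and 80.6 CPM in batches 1, 2 and 3. Lum passed in all 20 fits that left out 1 library (adjusted p 0.000639 to 0.0306). With each library's length trend as a covariate (the slope of its expression on gene length, a quantity that can move with RNA integrity), the difference was 0.77 and did not pass (edgeR adjusted p 0.0688).

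Lum was also higher in old tumours in the other arms, without passing. Under isotype, it ran from 62.0 through 89.1 to 143 CPM in 7 old tumours and from 13.8 through 25.03 to 44.99 CPM in 7 young tumours. Here the ages did not overlap, though the share of all genes that did not overlap was not computed. The difference was 1.24 ± 0.51 on the log2 scale (edgeR adjusted p 0.115), where 8.41% of all genes passed (4.36% higher and 4.04% lower). None of the 9 members passed there in edgeR or DESeq2, and 2 of 9 (Lum and Mfap5) had an unadjusted p under 0.05, as had 24.6% of all genes. Under anti-PD-L1, it ran from 44.96 through 85.5 to 106 CPM in 8 old tumours and from 14.8 through 34.5 to 76.1 CPM in 10 young tumours. All 8 old tumours exceeded the young median, and the difference was 0.95 ± 0.51 (edgeR adjusted p 0.276). These ages shared no batch, so age and batch cannot be told apart from their libraries alone. With no batch term, the difference passed in both arms, at 1.91 (adjusted p 0.000323) and 1.07 (adjusted p 0.0189).

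Pi16 encodes peptidase inhibitor 16, a surface protein of resting adventitial fibroblasts. Under anti-PD-L1, Pi16 ran from 13.4 through a median of 22.6 to 55.99 CPM in 8 old tumours and from 34.9 through 62.2 to 148 CPM in 10 young tumours. All 8 old tumours were below the young median, and the ranges overlapped between 34.9 and 55.99 CPM. The fitted difference was 4.79-fold lower in old tumours (log2 -2.26 ± 0.63 SE, edgeR adjusted p 0.0277), with group means of 26.5 ± 13.7 CPM (SD, n = 8) and 79.5 ± 44.8 CPM (SD, n = 10). Young anti-CTLA4 was the only group in both batch 1 and batch 2. Its mean Pi16 was 54.6 CPM in 4 libraries of batch 1 and 26.9 CPM in 3 of batch 2. Old and young anti-PD-L1 tumours shared no batch, so age and batch cannot be told apart from their libraries alone. In this comparison 5.04% of all genes passed (3.08% higher and 1.97% lower) and 21.1% had an unadjusted p under 0.05, and Pi16 was the 1 of 9 members past either line. With no batch term the difference was smaller, at -1.59 (edgeR adjusted p 0.00176). It did not pass when no filter on low counts was used (adjusted p 0.0561) or with the replicate number as a block (-1.26, edgeR adjusted p 0.302). It passed in all 18 fits that left out 1 library (adjusted p 0.00497 to 0.0460).

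In the other arms the Pi16 difference between ages did not pass in the fit with group and batch. Under isotype, Pi16 ran from 18.3 through 22.6 to 42.8 CPM in old and from 13.0 through 27.0 to 81.8 CPM in young tumours. The young range enclosed the old one, and the difference was -1.17 ± 0.62 on the log2 scale (edgeR adjusted p 0.237). Under anti-CTLA4, it ran from 21.9 through 39.2 to 66.7 CPM in old and from 25.5 through 47.3 to 130 CPM in young tumours. These ranges overlapped over most of their length, and the difference was -0.43 ± 0.37 (edgeR adjusted p 0.393). With the length trend as a covariate it was -0.99 and passed (edgeR adjusted p 0.0327), and with the replicate block it was 0.17. The age difference of Pi16 under anti-PD-L1 was not shown to exceed that under isotype (-1.09 ± 0.54, edgeR adjusted p 1.00 for the difference between them), nor was that of Lum under anti-CTLA4 shown to differ from isotype (-0.12 ± 0.54, edgeR adjusted p 0.947).

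Fitted differences between ages were positive for Lum and negative for Pi16 in every arm, though in no arm did both pass. Their ratio within each library was therefore described, without a test, since it was chosen after the values were seen. Both genes were picked for these opposite signs, so some separation of the ages in their ratio is built in. The log2 ratio of Lum to Pi16 had a median of 1.53 in the 23 old tumours (0.38 to 2.84) and -0.58 in the 29 young tumours (-1.97 to 0.53). Of the old tumours, 22 of 23 lay above every young tumour. The share of other gene pairs whose ratios separate the ages as far was not computed. The groups did not overlap under isotype (1.21 to 2.84 in old, -0.86 to 0.40 in young) or under anti-PD-L1 (0.92 to 2.65 against -1.97 to -0.18). In both of these arms the ages shared no batch, so age and batch cannot be told apart in the ratio. Under anti-CTLA4 they overlapped (0.38 to 1.56 against -1.01 to 0.53) over the 3 batches, but not within batch 1, where 7 old tumours ran from 0.38 to 1.56 and 4 young tumours from -1.01 to -0.19. Lum relative to its neighbour Dcn had a median log2 ratio of -0.76 in old and -2.04 in young tumours, and Pi16 relative to Dcn had -2.27 in old and -1.30 in young tumours.

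Within each age the 2 genes varied together from tumour to tumour. Over the 29 young libraries, the log2 CPM of Lum and Pi16 gave Pearson's r = 0.75 with a Spearman's rho of 0.75 (permutation test, adjusted p 1.5e-05 for both over 6 relations, r = 0.73 without the 2 libraries of most extreme Lum). Over the 23 old libraries r was 0.44 and rho 0.54 (permutation test, adjusted p 0.0334 and 0.00879, r = 0.56 without 2 libraries). Over all 52 libraries r was 0.14 and rho 0.11 (permutation adjusted p 0.343 and 0.452 over 36 pairs), and within batches 1, 2 and 3 r was -0.00043, 0.75 and -0.03. The plot of Lum against Pi16 shows the ages as separate bands that each slope upward.

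**Figure D2:**
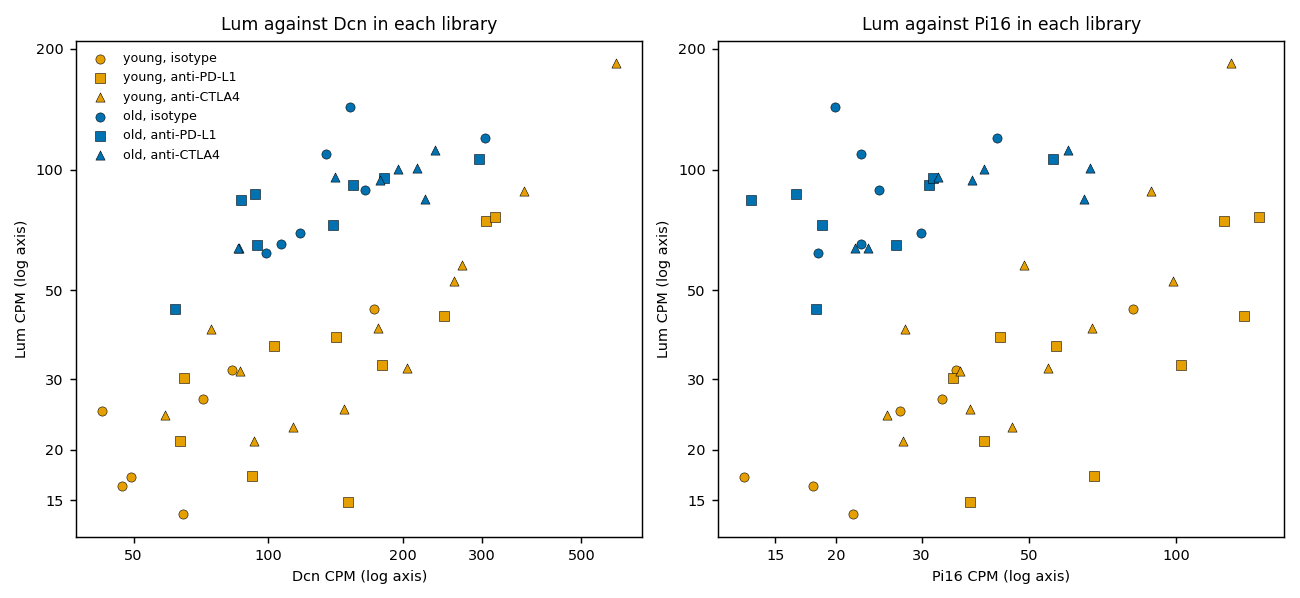
Lum CPM against Dcn CPM (left) and Pi16 CPM (right) in each of the 52 libraries, on log axes, with colour for age and shape for antibody. At a given Dcn or Pi16 level, most old tumours lie above the young ones in Lum, and 22 of 23 old tumours have a higher Lum to Pi16 ratio than every young tumour. Under isotype and anti-PD-L1 the ages shared no batch. Lum and Pi16 were paired after their values were seen, and the share of other pairs that separate so was not computed.

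Dcn encodes decorin, a small proteoglycan that binds collagen. Between ages it did not pass in any arm. Under isotype, Dcn ran from 98.7 through 134 to 304 CPM in old and from 42.5 through 64.6 to 172 CPM in young tumours. All 7 old tumours exceeded the young median, yet the fit with batch gave -0.16 ± 0.62 (edgeR adjusted p 0.902), and a fit of these groups alone, in which no batch term is possible, gave 1.04 (edgeR adjusted p 0.0479). The sign of this difference is thus set by how batch is handled, and age and batch cannot be told apart in it. The differences were -0.999 ± 0.628 under anti-PD-L1 and -0.08 ± 0.38 under anti-CTLA4.

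Mfap5, a microfibril-associated glycoprotein, ran from 56.3 through 63.6 to 80.7 CPM in old isotype and from 38.0 through 45.1 to 87.0 CPM in young isotype tumours. All 7 old tumours exceeded the young median, and the difference of 0.73 ± 0.27 did not pass (edgeR adjusted p 0.0780). It passed without young isotype replicate 5 (0.92, edgeR adjusted p 0.0233). The receptors, Fap, Acta2 and Thy1 did not pass between ages in any arm, and their log2 differences ran from -0.67 (Pdgfrb, anti-PD-L1) to 0.44 (Acta2, isotype). Fap, a surface serine protease of activated fibroblasts, had medians of 6.91 to 10.9 CPM over the 6 groups, and Acta2, the smooth muscle actin, 54.2 to 82.8 CPM. Thy1, a GPI-anchored surface glycoprotein, had group medians of 92.7 to 145 CPM. In old against young tumours the members' median log2 difference was -0.16 under isotype, -0.35 under anti-PD-L1 and -0.08 under anti-CTLA4, beside -0.09, -0.06 and -0.06 over all genes tested.

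**Figure D3:**
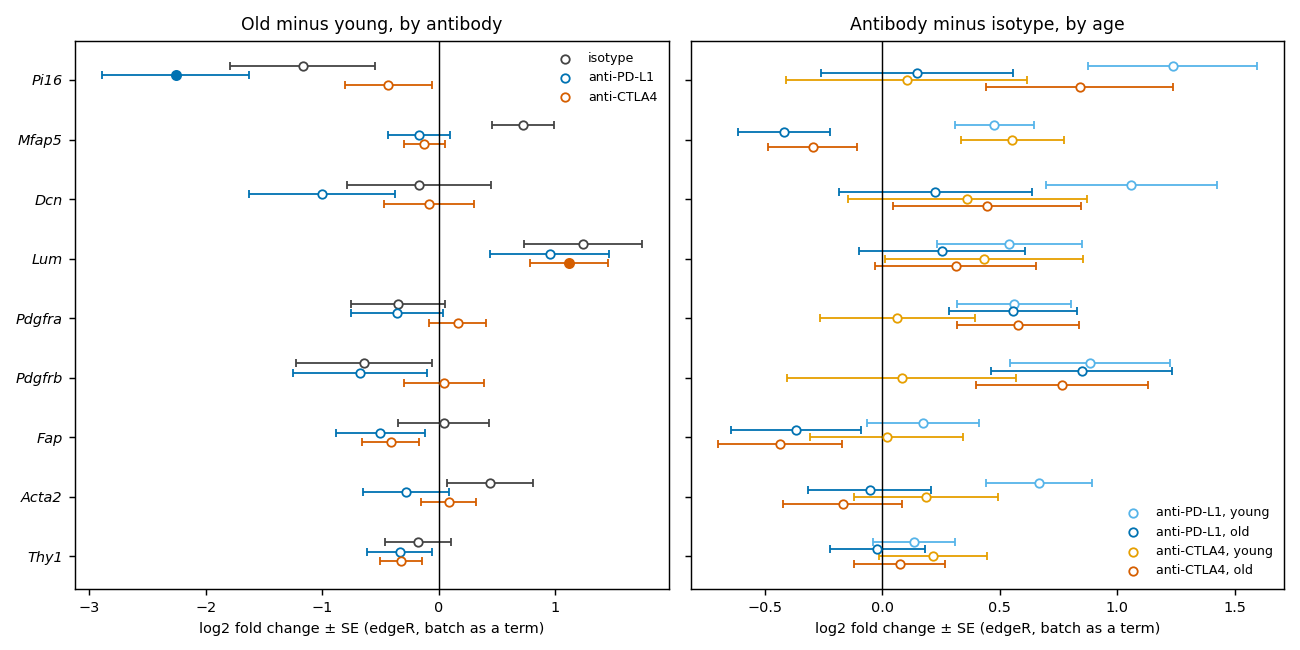
Log2 fold changes ± SE of the 9 members from edgeR with batch as a term, old minus young in each antibody arm (left) and antibody minus isotype in each age (right). Filled points passed at an adjusted p under 0.05, which were Pi16 under anti-PD-L1 and Lum under anti-CTLA4 in the comparison of ages.

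Against isotype in young mice, anti-PD-L1 tumours had higher fitted values of 9 of 9 members, with a median log2 difference of 0.56 beside 0.02 over all genes, but none passed in edgeR (0 of 9, where 1.59% of all genes passed, 0.223% higher and 1.37% lower). By an unadjusted p under 0.05, 6 of 9 members were past the line, as were 24.2% of all genes. Pi16 was nearest to passing: all 10 anti-PD-L1 tumours (34.9 to 148 CPM) exceeded the isotype median of 27.0 CPM, and the difference was 1.24 ± 0.36 (edgeR adjusted p 0.0581). Dcn, at 63.6 to 320 CPM against 42.5 to 172 CPM, was higher by 1.06 ± 0.36 (edgeR adjusted p 0.0969). Both pairs of ranges overlapped. Acta2 was higher by 0.67 ± 0.23 (edgeR adjusted p 0.0932) and Mfap5 by 0.48 ± 0.17 (edgeR adjusted p 0.101). The length trend differed between these groups, with a median of -0.16 in isotype and 0.02 in anti-PD-L1 tumours. With it as a covariate the differences were 0.70 for Pi16, 0.70 for Dcn, 0.30 for Acta2, 0.15 for Lum, 0.07 for Pdgfrb and 0.05 for Pdgfra, none of which passed.

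Single libraries decided the calls in this comparison. With DESeq2, Pi16 passed (adjusted p 0.0198). In edgeR without young isotype replicate 5, which had the highest Pi16 and Dcn of its group, Pi16, Mfap5 and Dcn passed, and without young anti-PD-L1 replicate 1, Pi16, Dcn and Acta2 passed. Without young isotype replicate 7, or anti-PD-L1 replicate 3 or 10, Pi16 passed alone. Without young isotype replicate 6, the library with the lowest TMM factor, none passed and the adjusted p of Pi16 was 0.270.

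Other groups of connective tissue genes gave values of the same sign in that comparison, where 52.2% of all genes tested had higher fitted values. The length trend, which differed between these groups, was not a covariate in the list values below. Fitted values were higher for 18 of 18 pan-fibroblast and matrix genes (median 0.79, 0 passed), a list that holds Dcn, Lum and Pdgfra. They were higher for 10 of 10 elastic microfibril genes (median 0.45, 0 passed) and for 8 of 8 tested small leucine-rich proteoglycans other than Dcn and Lum (median 1.32, 1 passed). The one that passed was Ogn, which encodes osteoglycin (1.61 ± 0.44, edgeR adjusted p 0.0452), and of 13 universal and adventitial fibroblast genes Col14a1, a fibril-associated collagen, passed (1.02 ± 0.26, edgeR adjusted p 0.0347). Both were named after their values were seen. Adipocyte genes had higher fitted values beside them (8 of 8, median 0.58, 0 passed), with sums of 162 to 1237 CPM against 82.2 to 1014 CPM under isotype. Endothelial genes did too (5 of 6, median 0.75, 0 passed), with sums of 131 to 288 CPM against 117 to 175 CPM, and no gene of either list was at 0 in any library. Their part in the members' values was not tested.

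Anti-CTLA4 against isotype in young mice gave 0 of 9 members past the threshold in edgeR and in DESeq2, where 0.0726% of all genes passed in edgeR (0.00559% higher and 0.067% lower). An unadjusted p under 0.05 was seen for 1 of 9, Mfap5, and for 6.97% of all genes. Mfap5 was higher by 0.55 ± 0.22 (edgeR adjusted p 0.528), with 11 of 12 tumours above the isotype median. In old mice, 0 of 9 members passed for either antibody against isotype in edgeR and in DESeq2, with 0% of all genes past the threshold in edgeR, and 3 of 9 had an unadjusted p under 0.05 in each comparison, as had 30.1% of all genes for anti-PD-L1 and 29.7% for anti-CTLA4. Pdgfrb was higher by 0.85 ± 0.38 under anti-PD-L1 and by 0.77 ± 0.37 under anti-CTLA4, and Pdgfra by 0.56 ± 0.27 and 0.58 ± 0.26. The length trend again differed, with medians of -0.05 in isotype, 0.13 in anti-PD-L1 and 0.11 in anti-CTLA4 tumours. With it as a covariate Pdgfrb had 0.02 and -0.10, and Pdgfra -0.12 and -0.11. Both comparisons use the same 7 isotype tumours. Lum in old mice differed from isotype by 0.25 (from -0.45 to 0.96 at 2 SE on either side) under anti-PD-L1 and 0.31 (from -0.37 to 1.00) under anti-CTLA4. Anti-CTLA4 against anti-PD-L1 gave 0 of 9 members at either age in edgeR and in DESeq2, beside 0% of all genes in edgeR, with 1 of 9 members (6.94% of all genes) at an unadjusted p under 0.05 in young and 0 of 9 (1.36% of all genes) in old mice.

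The difference between ages in the effect of an antibody was tested directly. No member passed for anti-PD-L1 or for anti-CTLA4 in edgeR or DESeq2, as was true of all genes in edgeR (0%), and 3 and 1 of 9 members had an unadjusted p under 0.05, beside 3.66% and 7.02% of all genes. For anti-PD-L1 all 9 fitted values were lower in old mice (median -0.54, beside 0.02 over all genes). The largest relative to its error was Mfap5, at -0.90 ± 0.26 (edgeR adjusted p 0.404), followed by Acta2 at -0.72 ± 0.34 and Pi16 at -1.09 ± 0.54, both with an adjusted p of 1.00 in edgeR. An antibody effect on these genes that differs between ages was therefore not shown.

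Genes of related function were set beside the comparisons in which a member passed. In the comparison of ages under anti-CTLA4, the list counts below stand beside the 30.6% of all genes that passed. Those under anti-PD-L1 stand beside 5.04%, and there the ages shared no batch. Of all genes tested, 45.8% had higher fitted values in old tumours under anti-CTLA4 and 45.3% under anti-PD-L1. Among 10 inflammatory fibroblast genes, 9 had lower fitted values in old tumours under anti-CTLA4, 5 fell and the chemokine gene Cxcl14 rose (0.78 ± 0.23). Those that fell included the chemokines Ccl2 (-1.86 ± 0.30) and Ccl7 (-1.47 ± 0.32) and the complement gene C3 (-2.29 ± 0.54, edgeR adjusted p 0.0011). Under anti-PD-L1, 9 of 10 were lower and Ccl2 fell (-1.85 ± 0.45, edgeR adjusted p 0.0131). Of 15 myofibroblast genes, a list that holds Acta2 and Fap, 13 were higher in old tumours under anti-CTLA4 and 5 rose, among them Col8a1 (1.22 ± 0.28), Lrrc15 (1.48 ± 0.35), a marker of contractile tumour fibroblasts, and Inhba (1.00 ± 0.31). Under anti-PD-L1, 9 of 15 were higher and none passed. Of 8 tested proteoglycan relatives of Lum, 4 were higher and 4 lower there (median -0.01, beside -0.06 over all genes), and Aspn (1.51 ± 0.42) and Kera (3.05 ± 0.78, at a mean of 1.03 CPM in old and 0.146 CPM in young tumours, and at 0 in 15 of 52 libraries) rose in old anti-CTLA4 tumours.

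Of 10 elastic microfibril genes, relatives in function of Mfap5, 6 were higher and 4 lower. Eln, which encodes elastin, rose (1.49 ± 0.36), Fbn2 rose (1.14 ± 0.42) and Emilin1 fell (-0.74 ± 0.25) in old anti-CTLA4 tumours. Among the 4 PDGF ligands of Pdgfra and Pdgfrb, Pdgfc rose (0.57 ± 0.20) and Pdgfb fell (-0.56 ± 0.17) there, while neither receptor passed. Of 13 universal and adventitial genes, 9 were lower in old anti-CTLA4 tumours, where 1 fell and 1 rose and Pi16 itself did not pass. The one that fell was Ly6c1 (-1.36 ± 0.35), and Clec3b had -2.47 ± 0.79 under anti-PD-L1 without passing (edgeR adjusted p 0.0532). Members of the universal and adventitial list did not all follow Pi16: Penk rose in old anti-CTLA4 tumours (0.90 ± 0.32). Over the 52 libraries, Pi16 had a Spearman's rho of 0.36 with the summed level of 11 genes of that list. With inflammatory fibroblast genes Pi16 had 0.74, and with proteoglycan genes 0.73. Fap had 0.77 with the universal and adventitial list and 0.27 with myofibroblast genes. Mfap5 had 0.63 with the former, and Acta2 had 0.76 with the latter. Such sums are weighted to their most abundant genes. Median levels were 301 CPM for Anxa3 in the universal and adventitial list and 264 CPM for Bgn among proteoglycans. They were 298 CPM for C3 and 200 CPM for Cxcl14 among inflammatory genes, and 294 CPM for Tpm1 and 282 CPM for Postn among myofibroblast genes.

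Markers of other cells were set beside the same comparisons of ages, where 30.6% of all genes passed under anti-CTLA4 and 5.04% under anti-PD-L1. Under anti-PD-L1 the ages shared no batch. T cell genes had lower fitted values in old tumours for 9 of 9 genes under anti-CTLA4 (7 fell) and for 9 of 9 under anti-PD-L1 (none passed), none of them at 0 in any library. Their summed level ran from 53.3 to 236 CPM in old and 121 to 1321 CPM in young anti-CTLA4 tumours, and from 21.8 to 372 and 64.5 to 672 CPM under anti-PD-L1. Luminal and carcinoma epithelial genes were higher in old tumours for 6 of 7 under anti-CTLA4 (5 rose) and 7 of 7 under anti-PD-L1 (2 rose), with Krt7 and Epcam rising in both. Their sums ran from 2233 to 3348 CPM in old and 649 to 2759 CPM in young anti-CTLA4 tumours, and from 2355 to 3349 and 1117 to 3272 CPM under anti-PD-L1, with none at 0. Adipocyte genes had lower fitted values in old anti-PD-L1 tumours for 8 of 8 (median -0.86, 0 passed), with sums of 28.7 to 604 CPM in old and 162 to 1237 CPM in young tumours. Their part in the differences of Lum and Pi16 was not tested.

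Over the 52 libraries, the members mostly varied together. Of 36 pairs, 35 had a positive Pearson's r of log2 CPM, with a median of 0.43, and 25 passed for both r and Spearman's rho (permutation tests of 100000 resamples, adjusted over the 36 pairs), all positive. Within each of the 3 batches 24 of these 25 were positive, the exception being Dcn and Acta2 at -0.08 in batch 1. The share of pairs of other genes that would pass was not computed. These counts therefore do not show that varying together is particular to the members. The strongest pair was Dcn and Thy1 (r = 0.79, rho = 0.83, permutation adjusted p 3.6e-05 and 7.2e-05, from the smallest p the resamples can give), with r of 0.77, 0.83 and 0.86 within batches 1, 2 and 3 and 0.76 without the 2 libraries of most extreme Dcn. Pi16 and Dcn had r = 0.73 and rho = 0.71 (permutation adjusted p 3.6e-05 and 7.2e-05), with 0.79, 0.91 and 0.84 within batches and 0.71 without 2 libraries. The only negative pair was Fap and Pdgfra (r = -0.15, rho = -0.16, permutation adjusted p 0.305 and 0.302).

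**Figure D4:**
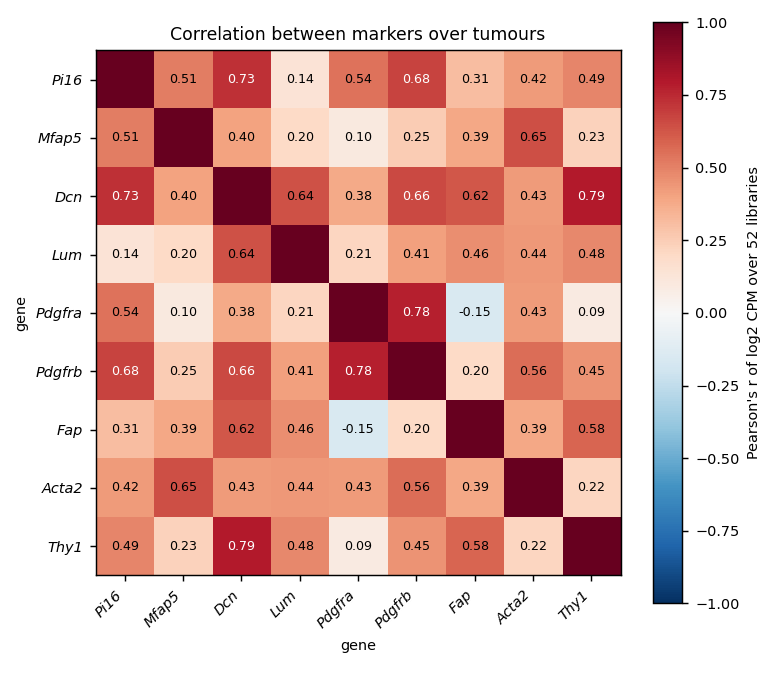
Pearson's r of log2 CPM between each pair of members over the 52 libraries, from -1 (blue) to 1 (red). Dcn with Thy1 (0.79) and Pdgfra with Pdgfrb (0.78) are the strongest pairs, and Lum with Pi16 stands at 0.14.

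Both receptors varied with the length trend of the libraries. Pdgfra and Pdgfrb had r = 0.78 and rho = 0.71 with each other (permutation adjusted p 3.6e-05 and 7.2e-05), with 0.85, 0.71 and 0.91 within batches and 0.73 without 2 libraries. The length trend of a library, from -0.44 to 0.24 log2 CPM per doubling of gene length, had r = 0.84 and rho = 0.74 with Pdgfra and r = 0.76 and rho = 0.71 with Pdgfrb (permutation adjusted p 4.5e-05 for each, over 9 members). Within batches r was 0.82, 0.92 and 0.92 for Pdgfra and 0.68, 0.80 and 0.83 for Pdgfrb, and without the 2 libraries of most extreme trend it was 0.78 and 0.71. Acta2 (r = 0.52, rho = 0.51, permutation adjusted p 0.00033 and 0.00045) and Lum (r = 0.50, rho = 0.46, permutation adjusted p 0.00036 and 0.00175) followed the trend less closely. Within batches r was 0.46, 0.62 and 0.08 for Acta2 and 0.52, 0.60 and 0.12 for Lum. For Mfap5 r was 0.04 (rho = -0.02, permutation adjusted p 0.786 and 0.863). After the trend was taken out, the 2 receptors had r = 0.39 (rho = 0.34, permutation adjusted p 0.00837 and 0.0252), with 0.72, -0.08 and 0.71 within batches. With the trend as a covariate, Pdgfra and Pdgfrb fell with age under anti-CTLA4 (-0.45 and -0.69), where the fit without it gave 0.16 and 0.05. Whether the trend reflects RNA quality, cell makeup or both was not tested.

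As a description, the 3 genes whose log2 CPM ranked most like each member over the 52 libraries were found among 13087 genes with a mean of at least 1 CPM. Those nearest to Pi16 were Lbp (rho 0.92), Serpina3n (0.90) and Sod3 (0.90), and those nearest to Dcn were Bmper (0.93), Adamts5 (0.93) and Fgf10 (0.91). Lum was nearest to Cdh11 (0.89), a mesenchymal cadherin, Snai2 (0.82) and Fbln7 (0.82). Pdgfrb was nearest to Nid1 (0.95), a basement membrane protein, Adamts2 (0.94) and Slit3 (0.94), and Pdgfra to App (0.89), Efna5 (0.89) and Dock1 (0.88). Acta2 was nearest to Srpx2 (0.87), to the contractile gene Tpm2 (0.83) and to Fstl1 (0.81), and Thy1 to Cpxm1 (0.87), Vstm4 (0.87) and Gstm2 (0.86). Mfap5 and Fap had few close partners: Anxa8 (0.80), Layn (0.76) and Gpx7 (0.73) for Mfap5, and Itm2a (0.79), Mdk (0.78) and Tfpi (0.72) for Fap. Over 0.7 were 3 genes for Mfap5 and 6 for Fap, against 294 for Dcn, 683 for Pdgfrb and 816 for Pdgfra. Such counts were not made for genes other than the members. Pdgfra and Pdgfrb also followed the length trend of the libraries (r = 0.84 and 0.76), and its part in the counts was not tested.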

How the data were processed

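Bulk RNA of 52 tumour libraries was analysed. Per the submitters' processing notes, the authors used Salmon (no version given), DESeq2 1.16.1 and mm10, and the labels' protocols give a strand-marking kit. The authors deposited estimated counts per gene, which are whole numbers proportional to the deposited TPM values times 1 length per gene (largest log2 deviation 0.0018 over 2644 genes with at least 500 counts in every library). Details of summing transcripts to genes and of strand use were not given in the sources used here, which leaves reads shared by actin paralogs of Acta2 uncertain. GENCODE vM21 gave symbols for 47224 of the 47729 genes.

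The main test was that of edgeR 4.0.16 under R 4.3.3 (filterByExpr, TMM, 1 fit over all libraries with group and sequencing batch, quasi-likelihood F test), with p-values adjusted by Benjamini-Hochberg over 17899 genes and a threshold of 0.05. Log2 CPM used a prior count of 2. Library totals had a median of 20665700 counts. No 2 libraries of a group were copies (smallest chi-square per degree of freedom 17.5 over 209 pairs). The test was checked on simulated data. The members, the 20 lists (165 genes) and the comparisons were chosen with earlier results of these data known, so no p is given over a list. All 9 members are named, with 3 nearest genes each and up to 3 genes of smallest p of a list where a member passed. Alternatives were DESeq2 1.42.0, other size factors, no filter, no batch term, the compared groups or 1 batch alone, a length trend covariate, a replicate block, and leaving out libraries of TMM factor under 0.8 or each library in turn. Residuals after the length trend were added after seeing the data.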

Additional observations from a re-analysis of the deposited data

How the results depend on the processing

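Of the 99 log2 differences, the direction and side of the threshold held for 99 with other size factors, 98 with DESeq2, 98 with no filter, 93 without 4 libraries of low TMM factor, 85 with the replicate block, 80 with the length trend and 79 with no batch term; most of the rest changed sign without passing. Of 1998 values with 1 library left out, 1897 held, 10 came past the threshold, 91 changed sign without passing and none was lost. Without a batch term, 3 members passed for anti-CTLA4 in young mice (Dcn, Lum and Thy1), 1 for age under isotype and 2 under anti-PD-L1. With the length trend, 1, 2 and 3 members passed for age under isotype, anti-PD-L1 and anti-CTLA4 (Lum, then Pi16 and Pdgfra, then Pi16, Pdgfra and Pdgfrb). Under anti-CTLA4 Pdgfra (-0.45, adjusted p 0.00566) and Pdgfrb (-0.69, adjusted p 0.0344) turned in sign, and so did Dcn under isotype in the fit of those groups alone (1.04), where 2 members passed for age, as under anti-PD-L1. With no filter, 0 members passed for age under anti-PD-L1, and DESeq2 passed 1 for anti-PD-L1 in young mice. The cause was not tested. With 1 library left out, 0 to 3 members passed for anti-PD-L1 in young mice, 0 to 1 for age under isotype, and 1 throughout for age under each antibody.

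Replicate numbers did not pair the libraries: deviations of same-numbered libraries correlated at 0.0040 on average (113 pairs), beside 0.00083 for other pairs (1004). With the replicate block, 2 members (Mfap5 and Lum) passed for age under isotype and 0 under anti-PD-L1, where Pi16 had -1.26 (adjusted p 0.302) and 35 of all genes passed in place of 903. Lum under anti-CTLA4 had 1.70 with the block (adjusted p 0.000145).

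Over all genes, DESeq2 called 2378 for anti-PD-L1 and 1912 for anti-CTLA4 in old mice, where edgeR called 0, and 863 for anti-PD-L1 in young mice, where edgeR called 285. That count of 285 became 24 with the length trend, 18 without the libraries of low TMM factor, 135 with the replicate block, 142 with those groups alone, 178 in batch 2 alone and 153 with no filter. For anti-CTLA4 in young mice 13 became 1240 with no batch term and 51 with DESeq2. For age under isotype 1505 became 3261 with no batch term, 3919 with the length trend, 752 with the block and 2690 once low-factor libraries were left out. For age under anti-PD-L1 903 became 2192 with no batch term, 2948 with the length trend, 2094 with those groups alone, 1532 with DESeq2 and 426 with no filter. By median CPM in place of TPM, 5 in place of 6 members had their highest group median in old mice. Of 36 pairs, 30 passed after group and batch were taken out. After the length trend, an alternative added after seeing the data, 22 passed as positive and 1 as negative, Lum and Pdgfra (r = -0.43, rho = -0.47). Depth limits Fap most, whose counts started at 45.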

Other observations

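Of the 9 members, Thy1 had the highest rank correlation with each of 3 lymphoid lists. Over the 52 libraries, Thy1 had a Spearman's rho of 0.59 with the summed level of 9 T cell genes. It had 0.63 with that of 8 B cell genes and 0.72 with that of 5 lymph node stroma genes. Dcn, the next highest in each, had 0.39, 0.48 and 0.62. Thy1 had similar or higher values with lists of other cells: 0.74 for pericyte and mural, 0.73 for endothelial, 0.69 for universal and adventitial fibroblast and 0.67 for adipocyte genes. B cell genes summed to 2.66 CPM in the lowest and 1519 CPM in the highest library. No p is given for these values, and the share of Thy1 RNA from T cells was not tested.

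Skeletal muscle genes had a rho of -0.77 with Pi16 over the same libraries, at summed levels of 2.22 to 78.3 CPM. The rho was taken with that sum, in which Tnnt3 had the highest median (10.1 CPM). Mylpf had a median of 1.56 CPM and Ckm of 0.704 CPM. Group medians of the sum were 18.1 to 26.9 CPM in old and 6.20 to 12.5 CPM in young mice. The rho was taken over both ages and all batches. Of the 6 genes of the list 3 were tested, and Myh4 was at 0 in 44 libraries. Tnnt3, a fast troponin, rose in old tumours under anti-CTLA4 (2.48 ± 0.55) and anti-PD-L1 (2.56 ± 0.70, edgeR adjusted p 0.0255). The other tested genes of the list, Ckm (-0.06 and 1.71) and Mylpf (-0.15 and 0.06), did not pass in either.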
